A study of Mus musculus with 3 samples.

Results

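Nuclear genes for the mitochondrial ribosome, the protein import machinery, the respiratory chain and the inner membrane carriers were examined in mouse eggs. They were taken by symbol: genes whose symbol starts with Mrpl, Mrps, Timm, Tomm, Nduf, Uqcr, Atp5 or Slc25a, or with Cox and a digit. For each gene the transcript with the highest mean level over the 3 libraries was used. This gave 63 genes of the 6104 in the table analysed: 18 Mrpl, 8 Mrps, 5 Timm, 1 Tomm, 7 Nduf, 8 Cox, 2 Atp5 and 14 Slc25a genes, and no Uqcr gene.

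The RNA came from metaphase II oocytes of ICR mice, pooled as 20 oocytes from 4 mice in each library. Germinal vesicle oocytes were kept in M16 medium for 16 to 18 h to mature, and cDNA was made by SMART-Seq2. There were 3 libraries: young, aged, and aged oocytes matured with hUC-MSC-sec, the secretome of mesenchymal stem cells from human umbilical cord (here aged-sec). The groups follow the sample titles, because the treatment field names the secretome on all 3 samples. The age of the mice is not given in the sources used here. Each group had 1 library, so no value below has a replicate error or a p-value, and each difference is one between libraries. In pooled samples, fewer oocytes with a transcript and less RNA per oocyte cannot be told apart.

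The values are TPM, transcript abundance per length scaled to 1000000 in a library. The table analysed holds 9126 transcripts, each above 0 in every library, and in all of them the aged value is at least 1.2 times the young one. A transcript could therefore appear only if it was higher in the aged library, and the direction of the age comparison is fixed by this selection. The same aged values enter the comparison with aged-sec, so that comparison is not free of the selection either. Selecting on a high aged value pulls the ratio of aged-sec over aged downward. For that reason the main counts are set beside the same count over all symbols. Listed transcripts held 22.9% (young), 32.5% (aged) and 32.1% (aged-sec) of all TPM, and sequencing depth is unknown. Of 16 oocyte markers 4 were listed, led by Bmp15, with a summed level from 692 to 984 TPM. Of 16 cumulus and granulosa markers 3 were listed, at 3.26 to 5.40 TPM together. Of 10 stroma and endothelium markers 4 were listed, at 4.75 to 9.49 TPM together, and of 8 blood and immune markers none was listed. The part of such cells in the results below was not tested.

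Mitochondria carry their own small genome, but most of their proteins are encoded in the nucleus, made in the cytosol and brought in through the TOM complex of the outer membrane and the TIM complexes of the inner membrane. Mitochondrial ribosomes, built from imported Mrpl and Mrps proteins, translate the few mRNAs of the mitochondrial genome, and these products join nuclear-encoded subunits in the respiratory complexes. The egg supplies nearly all mitochondria of the embryo and depends on oxidative metabolism of pyruvate during maturation. The symbols of the mRNAs that the mitochondrial genome itself encodes were looked up, and none was listed. Because only selected transcripts are listed, the absence of these mRNAs says nothing of their level or change. The starts of symbols do not always name function. Tomm34 is a largely cytosolic co-chaperone, and Timmdc1 is an assembly factor of complex I.

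Promoters of 3 members are shown because GABPA (also called NRF-2) and NRF1 are classic activators of nuclear genes for mitochondria, and their motifs were searched in the whole set. Timm23 is the most abundant gene with a GABPA match before its start, Mrpl53 the most abundant with more than 1 such match, and Mrpl45 the most abundant with an NRF1 match there. Each sequence is the 250 bases before the gene's RefSeq start (GRCm38.p6), read 5′ to 3′ on the gene's strand, with the motif matches in capitals.
Timm23, chr14:32201892-32202141, minus strand: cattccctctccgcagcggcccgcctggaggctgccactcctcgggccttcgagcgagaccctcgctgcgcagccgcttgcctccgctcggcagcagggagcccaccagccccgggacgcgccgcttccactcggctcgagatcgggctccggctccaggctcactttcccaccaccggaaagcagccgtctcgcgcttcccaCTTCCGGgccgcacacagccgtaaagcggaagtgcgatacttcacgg
Mrpl53, chr6:83108858-83109107, plus strand: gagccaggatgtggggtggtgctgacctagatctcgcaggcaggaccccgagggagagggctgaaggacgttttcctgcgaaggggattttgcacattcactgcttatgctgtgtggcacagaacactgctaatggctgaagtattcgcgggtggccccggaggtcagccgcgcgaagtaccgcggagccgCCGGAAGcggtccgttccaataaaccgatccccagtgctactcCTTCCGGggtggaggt
Mrpl45, chr11:97315466-97315715, plus strand: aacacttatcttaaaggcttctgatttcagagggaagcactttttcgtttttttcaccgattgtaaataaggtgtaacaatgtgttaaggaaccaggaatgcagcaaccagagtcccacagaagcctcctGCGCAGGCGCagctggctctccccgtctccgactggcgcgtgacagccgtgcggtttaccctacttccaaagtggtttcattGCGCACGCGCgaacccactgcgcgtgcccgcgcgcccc

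Counted from the start, with −1 the base before it, the printed match in Timm23 lies at −47 to −41. Those in Mrpl53 lie at −59 to −53 and −16 to −10, and those in Mrpl45 at −120 to −111 and −38 to −29. After the start, and so not printed, are a further GABPA match in Timm23 at 11 to 17 and a further NRF1 match in Mrpl45 at 16 to 25. RefSeq promoter windows, of 300 bases with 50 after the start, were found for 54 of the 63 members, 61 windows in all. The GABPA letters CCGGAAG, on either strand, were in a window of 15 of these 54 genes (27.8%, exact 95% interval 16.5 to 41.6%). The share was 32.1% of the 156 other genes of the families with a window, 19.3% of all symbols of the table analysed, and 12.9% of protein-coding genes. Counted by window, it was 27.9% of the members' windows and 8.86% of all promoter windows. The NRF1 motif, of 10 letters with 1 of them free and as in the capitals of Mrpl45, was on either strand in a window of 8 of 54 members (14.8%, 6.62 to 27.1%), against 16.7%, 11.3% and 7.17% in the same 3 sets. By window the NRF1 shares were 13.1% of the members' and 4.60% of all. Both motifs were found in Mrps26 and Slc25a3, and 21 members had at least 1 of them. In the members' windows 19 of 24 GABPA matches and 5 of 11 NRF1 matches lay wholly before the start.

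**Figure D1:**
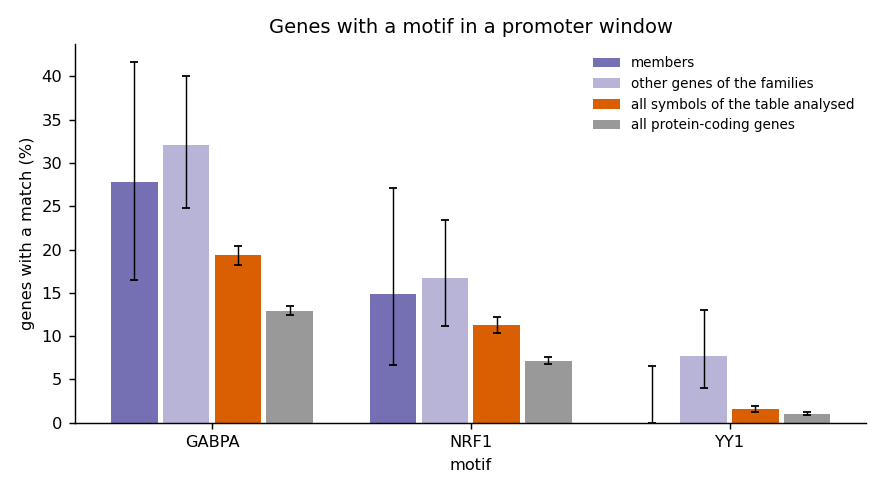
Percentage of genes with a match to the GABPA, NRF1 or YY1 letters in a promoter window (y axis, percent; x axis, motif) for the members, the other genes of the families, all symbols of the table analysed and all protein-coding genes. Bars are shares and lines exact 95% intervals; the GABPA share is 27.8% in members and 12.9% in protein-coding genes, and YY1 was found in 0 of 54 members.

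The YY1 motif, of 11 letters, was in the windows of 0 of 54 members, an upper exact limit of 6.60%, in 7.69% of the other genes of the families, in 1.58% of all symbols of the table analysed and in 1.06% of protein-coding genes. It was in 0.63% of all promoter windows. A count of 0 of 54 is near the shares over all symbols and protein-coding genes. A place matched on both strands was counted once. The members' windows had a median GC content of 61.3%, against 59.3% over the symbols of the table analysed and 56.3% over protein-coding genes. The 15 members with a GABPA match had a median of 6.42 TPM in aged oocytes and a median aged-sec over aged ratio of 0.86. The 39 without one had 3.90 TPM and 0.96. For NRF1 the ratio was 0.87 in the 8 members with a match and 0.89 in the 46 without. These are descriptions with no test, and a match is not a shown binding site.

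The families were unevenly represented among the listed genes. A listed transcript existed for 63 of 252 annotated genes of these families (25%), against 27.3% of all protein-coding genes. The large ribosomal subunit had 18 of 49 genes listed (36.7%, exact 95% interval 23.4 to 51.7%). The Nduf genes, of complex I and its assembly factors, had 7 of 49 (14.3%, 5.94 to 27.2%). The Atp5 genes of complex V had 2 of 17 and the Uqcr genes of complex III 0 of 8, the latter with an upper exact limit of 36.9%. The remaining genes of the families were not analysed here, so the values below do not describe whole complexes. The selection acted on transcripts, so other transcripts of a listed gene, even its most abundant, may be missing from the table analysed. Levels, orders and family sums given here are therefore those of the listed transcripts used, and not of whole genes.

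Levels ranged widely. In the library where it was highest, the listed transcript used reached 10 TPM for 24 of the 63 genes. It lay from 1 to 10 TPM for 29 and stayed under 1 TPM for 10. Together the 63 genes summed to 2344 TPM (young), 3293 TPM (aged) and 3011 TPM (aged-sec). That was 1.02%, 1.01% and 0.94% of the listed TPM, and the members were 1.03% of the symbols. The listed TPM counts every listed transcript of a gene and the members' sums only 1, so these shares are of unlike units. With 1 transcript each, all symbols summed to 213818 TPM (young), 299066 TPM (aged) and 298136 TPM (aged-sec). Cox6b2 and Timm23 were far above the rest.

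**Figure D2:**
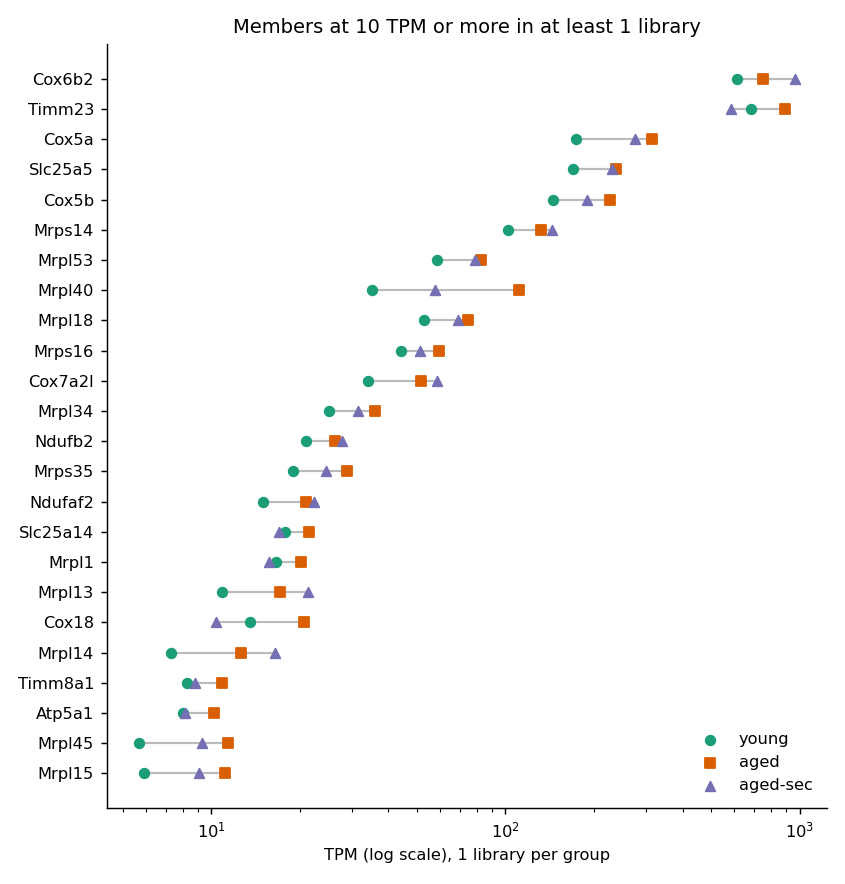
TPM (x axis, log scale) of the 24 members that reached 10 TPM in at least 1 library, 1 row per gene in order of mean level, with the young, aged and aged-sec libraries as points. Young lies left of aged in every row because of the selection; aged-sec lies right of aged in 7 rows and left of young in 4, among them Timm23 at 583 TPM.

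The order by mean level of the listed transcripts was Cox6b2, Timm23, Cox5a, Slc25a5, Cox5b, Mrps14, Mrpl53 and Mrpl40, followed by Mrpl18. With 1 library a group the neighbours in this order cannot be separated by a spread. The order of the first pair differed between libraries: Timm23 was the higher of them in young and aged oocytes and Cox6b2 in aged-sec oocytes.

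For the comparison of aged with young oocytes, a gene met the size rule if it differed at least 2-fold with 0.5 TPM added to both values, and reached 10 TPM in the higher of the pair. Among the 24 members with enough TPM 1 met it (4.17%), against 15.9% of the 1759 symbols with enough TPM. The median log2 ratio of aged over young was 0.49 over these members and 0.53 over all symbols. With a minimum of 1 TPM in place of 10 TPM, 9 of 50 members met the rule (18%), against 18.2% of 4235 symbols, so the lower share of the members did not hold at that minimum. The age excess of the 24 genes was mostly below 2-fold, from 0.27 to 0.93 on the log2 scale apart from Mrpl40.

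Mrpl40, a protein of the large mitochondrial ribosomal subunit, was the gene that met the rule. It stood at 35.3 TPM (young), 111 TPM (aged) and 57.8 TPM (aged-sec), a log2 ratio of aged over young of 1.64. The row is the second annotated copy of its accession (NM_010922), and no other row of this gene was analysed here. Reads of identical copies can be divided between them by the quantification, so the value is uncertain as a measure of the gene, and without second copies 0 of 22 members met the rule, against 15.7% of 1734 symbols.

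The ribosomal genes formed the longest list, with 26 listed members, 12 of them at 10 TPM or more in aged oocytes. The large subunit summed to 241 TPM (young), 409 TPM (aged) and 338 TPM (aged-sec); without Mrpl40 the sums were 206, 298 and 280.05 TPM. Mrpl53 stood at 58.4, 82.4 and 78.8 TPM, given here and below in the order young, aged, aged-sec. Mrpl18, whose listed transcript is a predicted one, stood at 52.8, 74.4 and 69.0 TPM. Both lay between young and aged in the aged-sec library, nearer to aged. Among large subunit genes at 10 TPM or more in aged oocytes, Mrpl45 and Mrpl15 had the largest age ratios after Mrpl40. Their log2 values were 0.93 and 0.87. Mrpl55, under the minimum at 0.39, 1.35 and 0.46 TPM, had a larger one of 1.06. Mrpl45 stood at 5.71, 11.4 and 9.34 TPM and Mrpl15 at 5.91, 11.2 and 9.10 TPM, each a predicted transcript near the 10 TPM minimum.

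The small subunit, which reads the mRNA, summed to 173 TPM (young), 238 TPM (aged) and 230 TPM (aged-sec). Mrps14 was its most abundant gene, at 102, 132 and 144 TPM. Mrps16 stood at 44.1, 59.7 and 51.3 TPM and Mrps35, a second annotated copy, at 19.02, 28.9 and 24.6 TPM. Of these 3 genes only Mrps14 was above aged in the aged-sec library, while under both scalings described below all 3 were above. Mrps12, a protein of the decoding centre, was under the minimum at 2.31, 5.68 and 0.90 TPM.

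The import genes were dominated by Timm23, the channel-forming subunit of the inner membrane translocase for presequence proteins. It stood at 681 TPM (young), 891 TPM (aged) and 583 TPM (aged-sec), so the aged-sec value was the lowest of the 3. Its log2 ratio was 0.39 for aged over young and −0.61 for aged-sec over aged, below the size rule in both. Timm8a1, a small chaperone of the intermembrane space, stood at 8.30, 10.9 and 8.81 TPM. The listed transcripts of the other genes with Timm or Tomm symbols, Timm21, Timm10b, Timmdc1 and Tomm34, were at or under 3 TPM. Timm21, an inner membrane import subunit, stood at 0.90, 3.00 and 2.07 TPM and Tomm34 at 1.33, 1.62 and 1.72 TPM.

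The Cox genes, of complex IV (cytochrome c oxidase) and its assembly factors, had the highest summed level of the families: 982 TPM (young), 1374 TPM (aged) and 1502 TPM (aged-sec). Most of it was Cox6b2, the isoform of subunit VIb described as testis-specific, at 611, 752 and 962 TPM. Its second listed variant (NM_001289849) stood at 98.0, 126 and 168 TPM, in the same order. Cox5a, a structural subunit, stood at 173, 315 and 276 TPM. It had the largest age ratio of the 5 Cox genes with enough TPM, 0.86 on the log2 scale. Cox5b, another structural subunit, stood at 145, 227 and 189 TPM. Without Cox6b2 the family summed to 371, 622 and 540 TPM, with aged-sec between young and aged, while with it aged-sec was the highest.

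Cox7a2l, which takes part in joining complexes III and IV into supercomplexes, stood at 34.1, 51.5 and 58.8 TPM. Like Cox6b2 it was highest in aged-sec oocytes. Cox18, an assembly factor that inserts a mitochondrially encoded subunit into the membrane, went the other way, at 13.6, 20.7 and 10.4 TPM. Its aged-sec over aged log2 ratio of −0.96 was the lowest of the 24 members and just short of the size rule. A second, predicted variant of Cox18 stood at 1.64, 2.33 and 1.73 TPM.

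Complexes I and V had few listed genes at 10 TPM or more. Ndufb2, an accessory subunit of complex I, stood at 21.0, 26.4 and 27.9 TPM, and its second curated variant at 12.3, 18.1 and 21.5 TPM. Ndufaf2, a complex I assembly factor, stood at 15, 21.1 and 22.3 TPM. In both genes aged-sec exceeded aged, by 0.08 on the log2 scale each. Ndufaf7, another assembly factor, was under the minimum at 1.78, 2.70 and 4.10 TPM, and Ndufs1, a core subunit, stood at 0.94, 2.21 and 1.34 TPM. Atp5a1, the alpha subunit of the ATP synthase, stood at 8.05, 10.2 and 8.16 TPM, with identical values in both annotated copies. Atp5g3, one of the genes for the membrane ring subunit c, had the largest age ratio of all 63 genes. It stood at 2.14 TPM (young), 9.68 TPM (aged) and 8.92 TPM (aged-sec), a log2 ratio of 1.95, and missed the rule by the 10 TPM minimum. Its gene has close paralogs for the same subunit, and reads of such copies may be divided among them.

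Carriers of the Slc25a family move metabolites across the inner membrane. Slc25a5, an ADP/ATP translocase, held most of their level, at 169.9 TPM (young), 237 TPM (aged) and 231 TPM (aged-sec). Slc25a14, a member of the uncoupling protein branch, stood at 17.8, 21.5 and 17.1 TPM, and no other carrier reached 10 TPM. Slc25a39, a carrier linked to mitochondrial glutathione, stood at 3.68, 4.82 and 4.64 TPM. Slc25a11, the oxoglutarate carrier, stood at 1.48, 5.67 and 3.44 TPM. Slc25a3, the phosphate carrier, was represented by a predicted transcript at 3.02, 4.43 and 1.71 TPM. The 14 carriers summed to 204 TPM (young), 287 TPM (aged) and 268 TPM (aged-sec).

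**Figure D3:**
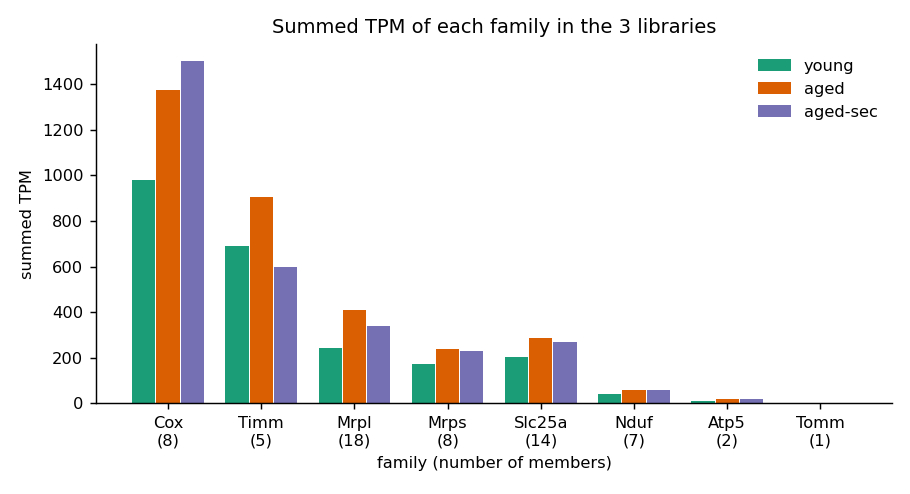
Summed TPM (y axis, from 0) of the members of each family (x axis, with the number of members) in the young, aged and aged-sec libraries, 1 bar each. Aged-sec is the highest bar for Cox, at 1502 TPM, and for the low Nduf and Tomm sums, and the lowest for Timm, at 597 TPM, and lies between young and aged for Mrpl, Mrps and Slc25a.

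Setting aged-sec against aged oocytes asks how the secretome library differed for transcripts selected as higher in the aged library than in the young one. No member met the size rule in either direction, of 24 with enough TPM. Among the 1789 symbols with enough TPM, 2.18% met it as lower and 0.168% as higher, so a count of 0 in 24 is near the background. With a minimum of 1 TPM, 4 of 53 members met it (7.55%), all lower, against 7.36% of 4320 symbols in either direction. The median log2 ratio was −0.20 over the members and −0.18 over all symbols. Of the 24 members 17 were below aged in the aged-sec library (70.8%, exact 95% interval over genes 48.9 to 87.4%), against 74% of all symbols. Over all 63 members it was 41 (65.1%), against 72.5% of all symbols. The 7 members above aged were 29.2%, against 25.9% of all symbols, and without a minimum 22 members (34.9%) were above, against 26.6%. These shares rest on the scaling, for members and all symbols alike. After scaling the listed transcripts to equal medians 8 of the 24 members were below aged (33.3%), against 36.6% of the 1789 symbols. With equal upper quartiles it was 10 of 24 (41.7%), against 41.6%.

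**Figure D4:**
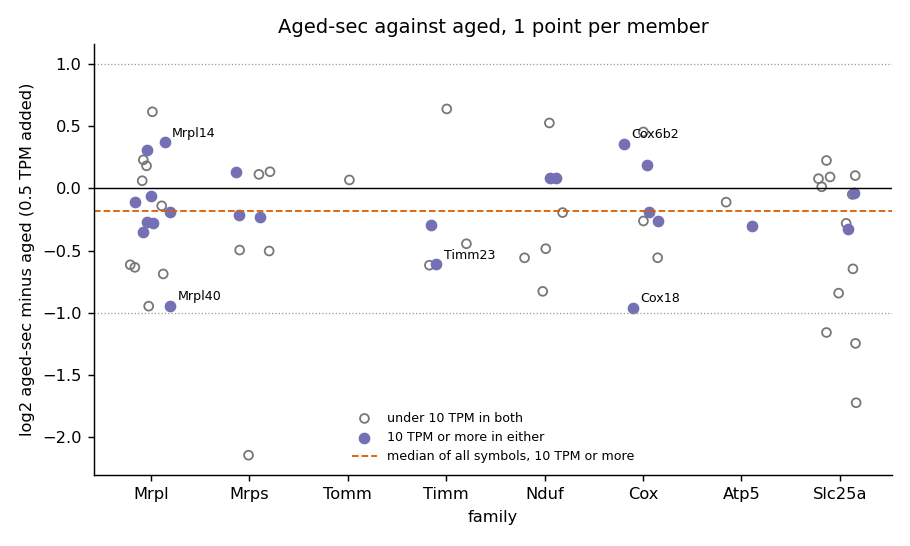
Log2 ratio of aged-sec over aged with 0.5 TPM added (y axis) for each of the 63 members by family (x axis). Filled points reached 10 TPM in either library, open points did not; the dashed line is the median of all symbols, −0.18, and the dotted lines mark the size rule, which no filled point passes.

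The 7 members above aged were Cox6b2, Cox7a2l, Ndufb2, Ndufaf2, Mrps14, Mrpl13 and Mrpl14. Mrpl14 stood at 7.33, 12.6 and 16.4 TPM, and Mrpl13 at 10.9, 17.2 and 21.4 TPM. By family, 4 of 8 respiratory members with enough TPM were above aged, 3 of 12 ribosomal ones, 0 of 2 import ones and 0 of 2 carriers. Under equal medians these were 6 of 8, 9 of 12, 0 of 2 and 1 of 2, against 63.4% of all symbols above aged. The differences between families were not tested. The summed level of all members was 0.91 times the aged level in aged-sec oocytes. Without Timm23 it was 1.01 times, and without Cox6b2 it was 0.81 times, so each of these 2 genes moved the sum.

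Against young oocytes, 1 of 20 members with enough TPM met the size rule in the aged-sec library (5%), against 14.2% of 1609 symbols that met it as higher and 0.311% as lower. It was Mrpl14, with a log2 ratio of 1.11, from a predicted transcript. Mrpl13 came next, at 0.94. The median was 0.42 over the members and 0.43 over all symbols. In 4 of the 20 members aged-sec was below young (20%), against 13.1% of all symbols. They were Timm23, Cox18, Slc25a14 and Mrpl1, with log2 ratios of −0.22, −0.37, −0.06 and −0.07. The 3 comparisons share libraries, so none of them is independent of the others.

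Directions depend on the scaling. TPM is scaled on the whole library, of which the listed transcripts are a selected part. Scaling the listed transcripts to equal medians moved the median log2 ratio of all transcripts by −0.79 for aged over young and by 0.29 for aged-sec over aged. The shift is nearly the same for every gene. Borderline genes apart, the genes that turn are therefore those whose deposited ratio is smaller than the shift. The counts below only say how many turned. In the age comparison 20 of the 24 members turned, against 72.1% of all symbols, the exceptions being Cox5a, Mrpl15, Mrpl40 and Mrpl45. Between aged-sec and aged 9 of 24 turned, against 37.6%, and between aged-sec and young 11 of 24, against 43.8%. Under both scalings 8 members stayed below aged: Timm23, Cox18, Mrpl40, Atp5a1, Mrpl1, Mrpl15, Slc25a14 and Timm8a1. The ratios of Timm23, Cox18 and Mrpl40 were well beyond the shift in size, and those of the others lay near it. Genes above aged as deposited moved further up, which says nothing more of them.

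Several genes had more than 1 listed transcript, which gives a view of the same gene from different accessions of 1 library. There were 13 such members, each with 2 accessions. Both were above aged in aged-sec oocytes in 2 of them, Cox6b2 and Ndufb2. Both were below in 5, namely Cox18, Cox5a, Mrps17, Mrps35 and Slc25a14. In the other 6 they lay on opposite sides. Mrps14 was one of these, with its main variant at 132 (aged) and 144 TPM (aged-sec) and its lower variant at 7.61 and 5.52 TPM. Ndufaf2 was another, with a lower variant at 3.51 and 1.90 TPM. Others of the 6 turned on very low values. The lower variant stood at 0.08 (aged) and 0.09 TPM (aged-sec) in Cox16, and at 0.41 and 0.03 TPM in Mrpl30. The same counts were not made over all symbols, so the counts of 2, 5 and 6 have no background here. Variants of 1 gene share reads and are not replicates.

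**Figure D5:**
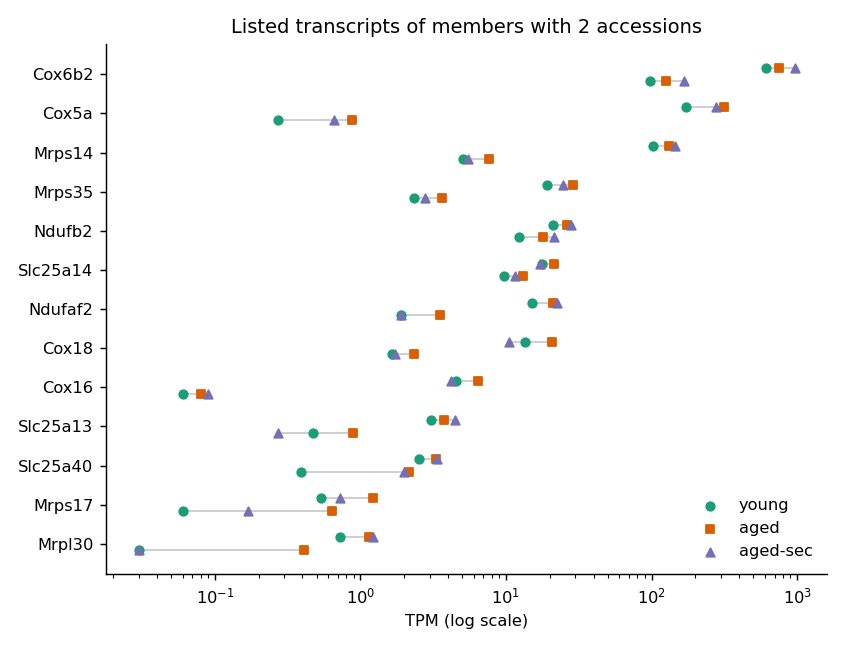
TPM (x axis, log scale) of the listed transcripts of the 13 members with 2 accessions (y axis), the more abundant one above, in the young, aged and aged-sec libraries. Both Cox6b2 transcripts are highest in aged-sec, while the lower Mrps14 transcript has aged-sec left of aged at 5.52 TPM.

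Other nuclear genes of the same pathways were taken from 6 lists of genes outside the symbol rule. For these lists too, the shares of all symbols below aged in the aged-sec library are the background: 74% as deposited, 36.6% with equal medians and 41.6% with equal upper quartiles. The size rule was met as higher by 15.9% of all symbols for aged over young and by 14.2% for aged-sec over young. For aged-sec over aged 2.18% met it as lower and 0.168% as higher. Single genes that met it are to be read beside these shares. Of 46 mitochondrial translation and RNA factors 25 were listed and 10 had enough TPM. In the age comparison 1 of the 10 met the size rule, Mtpap, the mitochondrial poly(A) polymerase, at 17.0, 40.9 and 31.4 TPM. None met it between aged-sec and aged, where 9 of 10 were below aged as deposited, with a median log2 ratio of −0.20, and 4 of 10 under both scalings, near the background. Fastkd1, an RNA-binding regulator of mitochondrial transcripts, stood at 25.9, 40.7 and 34.6 TPM. Of 20 genes of mitochondrial aminoacyl-tRNA formation 7 were listed, none with enough TPM. The most abundant were Gatc at 2.69, 3.52 and 3.73 TPM and Gatb at 2.92, 4.34 and 2.37 TPM, both subunits of the amidotransferase that completes glutaminyl-tRNA.

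Of 33 import, processing and folding genes 8 were listed and 5 had enough TPM, and none met the size rule. All 5 were below aged in aged-sec oocytes, with a median log2 ratio of −0.52 beside −0.18 over all symbols, and 4 of 5 were below under both scalings. Romo1, a small inner membrane protein, stood at 75.1, 115 and 83.5 TPM and Dnajc19, a co-chaperone of the import motor, at 36.1, 51.0 and 49.0 TPM. Under the scalings the exception was Dnajc19. Of 40 further respiratory chain and assembly genes 7 were listed. Only Sdhaf2, an assembly factor of complex II, had enough TPM, at 7.94, 10.3 and 10.9 TPM, and Ttc19, linked to complex III, stood at 3.04, 5.05 and 6.40 TPM.

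Of 37 genes of mitochondrial dynamics, cristae and quality control 16 were listed and 4 had enough TPM. All 4 were below aged in the aged-sec library as deposited and 2 of 4 under both scalings, beside 74%, 36.6% and 41.6% of all symbols. Vdac3, an outer membrane channel, stood at 73.4, 100.4 and 90.7 TPM. Rhot1, which couples mitochondria to microtubule motors, met the size rule against young in both aged libraries, at 11.3, 34.95 and 29.95 TPM. Over all symbols 15.9% met it as higher for aged over young and 14.2% for aged-sec over young. Of 29 genes of the tricarboxylic acid cycle and pyruvate entry 10 were listed and 7 had enough TPM. Mpc1, a subunit of the mitochondrial pyruvate carrier, stood at 174, 215 and 189 TPM and Pdhb, a subunit of pyruvate dehydrogenase, at 57.5, 92.8 and 61.4 TPM. Cs, citrate synthase, stood at 15.3, 30.2 and 40.25 TPM. With a log2 ratio of 1.37 it met the size rule between aged-sec and young, against 14.2% of all symbols as higher. Of the 7, it alone was above aged in aged-sec oocytes as deposited, while 5 of 7 were above under both scalings, and none of the 7 met the rule in the other comparisons.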

How the data were processed

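Per the file headers, the authors deposited TPM of RefSeq transcripts for 3 libraries, and 2 ratio columns, A/Y and AS/A. These deposited ratios match quotients of the TPM values to within 6.64e-07 (relative). No A/Y value lies under 1.2 and there are 0 rows with a zero, which makes the file a selected part of each library. The aligner, counting program and genome build: not given in the sources used here. No coordinates are printed except those of RefSeq promoter windows (GRCm38.p6).

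TPM were used as deposited, 1 transcript per symbol (Python 3.11.15, pandas 2.3.3). Of the 63 members 44 were represented by a curated and 19 by a predicted transcript, and 3 by a second copy of an accession. The size rule asked for a log2 ratio of 1 or more in size, with 0.5 TPM added, and 10 TPM or more in the higher of both values. Background counts used all symbols in the same way. With 1 library a group no test was made, and precision is limited by that number. Functions were tested on simulated data. Intervals of shares are exact Clopper-Pearson over genes, which are not replicates. Named were the 3 most abundant members of each family, those that met the size rule and, in larger families, the extremes of aged-sec over aged. Further members were named after their values were seen. The members, lists and motifs were chosen with earlier results of these data known.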

Additional observations from a re-analysis of the deposited data

How the results depend on the processing

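Of 66 recomputed values over 10 alternatives, 45 kept their direction and stayed within 1.5 times or within the interval of the main value. For aged over young the direction could not change in the settings without scaling, because the selection fixes it. Scaling the listed transcripts reversed 6 medians. With equal medians the members' median log2 ratio was −0.30 for aged over young, 0.14 for aged-sec over aged and −0.12 for aged-sec over young; with equal upper quartiles it was −0.30, 0.10 and −0.15. The medians of all symbols turned with them, since these scalings set the selected transcripts level. Members with aged-sec below aged were then 25% and 30% of the 20 with enough TPM after scaling, against 33.7% and 38.5% of all symbols. Members that met the size rule numbered 0 under both scalings, against 1 for aged over young and 1 for aged-sec over young as deposited. The shares of all symbols also fell, to 2.19% and 2.17% for aged over young and 4.63% and 4.80% for aged-sec over young. For aged-sec over aged they were 1.55% and 1.49%. Counts of 0 in 20 to 23 members are near these shares. With a minimum of 1 TPM, or with none, 9 members met the rule for aged over young, 4 for aged-sec over aged, all lower, and 6 for aged-sec over young. At 1 TPM these were 18%, 7.55% and 12.5% of members, against 18.2%, 7.36% and 15.3% of all symbols; with none they were 14.3%, 6.35% and 9.52%, against 13.2%, 5.49% and 10.6%. With a minimum of 30 TPM, and with curated transcripts only, 0 met it for aged-sec over young, because Mrpl14 left the set. These were 0 of 12 and 0 of 17 members, against 11.5% and 11.7% of all symbols. Without second copies, a setting chosen after seeing the data, 0 met it for aged over young, against 15.7% of all symbols. The pseudocount and the sum over transcripts changed no count of members that met the size rule. With the sum, 75% of members were below aged in place of 70.8%, against 75.9% of all symbols. No paired analysis was possible because each group had 1 library, and for the same reason no library was left out. Depth is unknown from TPM, so the error of low transcripts could not be given.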
